A study of Mus musculus with 22 samples.

Results

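Wild-type mouse gastruloids grown with Activin A were compared at 120 h with wild-type gastruloids grown with Chiron, in 4 RNA-seq libraries out of the 22 of the series: 2 of Activin A gastruloids and 2 of Chiron gastruloids, chosen by their labels. Gastruloids are aggregates of mouse embryonic stem (mES) cells that break symmetry and form derivatives of the germ layers. Both groups carry the wild-type genotype and stem from mES cells kept, per the labels' protocols, in serum medium with LIF (100 ng/ml), CHIR99021 (3 µM), which inhibits GSK-3, and PD0325901 (1 µM), which inhibits MEK. The labels call the material mixed cells, and doses and schedules of the 2 agents in gastruloids are not given in the sources used here. They also do not say whether the 2 libraries of a group came from separate cultures, so the p-values measure the spread between these libraries, which may be technical. The same 2 groups at 96 h (4 libraries) shared the model and were used to ask whether a difference at 120 h was already there a day earlier.

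Activin A binds the same type II and type I receptors as Nodal, and its receptors phosphorylate SMAD2 and SMAD3. In the embryo the strongest Nodal signalling at the anterior primitive streak gives rise to definitive endoderm and to the axial mesendoderm of the node and notochord. Chiron is the short name of CHIR99021, which blocks GSK-3 and so stabilises beta-catenin and raises Wnt signalling. A Wnt pulse drives gastruloids to form a posterior pole with neuromesodermal progenitors, presomitic mesoderm and Hox gene activation.

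The 4 libraries of 120 h held 9108085 to 11930416 counts, and those of 96 h 20547464 to 28819301, so time and depth go together. Levels are given in CPM, counts scaled to a common library size with edgeR's TMM factors, in the order replicate 1 and replicate 2. In the libraries of 120 h, 3 counts corresponded to 0.249 to 0.314 CPM. Replicates differed by more than counting error, and their chi-square over its degrees of freedom was 3.93 for Chiron and 1.40 for Activin A at 120 h. In the deeper libraries of 96 h it was 11.3 for Chiron and 1.97 for Activin A. A gene was called when edgeR's quasi-likelihood test gave a Benjamini-Hochberg adjusted p under 0.05 over the 17305 genes tested, and "rose" and "fell" describe Activin A relative to Chiron. In bulk RNA, fewer cells of a type and less RNA per cell cannot be told apart. The use of strand in counting is not given in the sources used here, so reads of overlapping genes may have been assigned to either, and 3935 of the called genes overlap another gene model. Among the genes described below this holds for 108 genes, among them Aldh1a2, Axin2, Cfc1, Chrd, Dll1, Emb, Eomes, Fn1, Foxf1, Fzd5, Gata6, Gli1, Hes7, Hoxa7, Krt8, Lamb3, Mest, Nkx1-2, Notum, Osr1, Otx2, Pax1, Pou5f1, Ptch1, Rarb, Runx1, Sema3a, Shh, Slc16a1 and Sox17, whose levels are uncertain to that extent.

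At 120 h, 7249 of 17305 genes (41.9%) were called, of which 3513 rose (20.3% of those tested) and 3736 fell (21.6%). The 2 directions differed in size. Calls of at least 2-fold numbered 1761 upward (10.2%) and 529 downward (3.06%), and calls of at least 8-fold 432 upward and 81 downward. The levels of the 2 treatments did not overlap for 12101 genes (69.9%). With 2 libraries on each side this also happens without a treatment difference, so the share does not count genes that differ. The median log2 fold change over all genes was -0.01, and the median of its absolute value was 0.29. The near-even split of the calls (48.5% upward) depended on the processing. With offsets for GC content and transcript length it was 27.9%, and the median of all genes was -0.17. These offsets also took up the mean deviation of each library, on top of the TMM factors. How much of the shift belongs to GC content and length was not tested. Genes that rose had a median GC content of 52.4% and genes that fell 48.2%, against 49.8% for all genes. Of 225 called genes named here, 201 kept their call under each of the 18 alternatives that tested them (the stricter filter and the fits on FPKM tested fewer genes), and the call ended under at least 1 alternative for 24, which are Acvr2a, Afp, Apoe, Bmp5, Cdh5, Cdon, Dazl, Ddx4, Dppa3, Dusp6, Eno1, Fgf8, Fgf9, Hes5, Hmga2, Hoxc11, Hoxd1, Msgn1, Nkx2-2, Pcdh8, Smo, Sox3, Tbx3 and Wt1.

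Of the 14098 protein-coding genes tested, 6713 were called (47.6%). Among 419 intergenic long noncoding RNAs the share was 32.5%, and among 1334 processed pseudogenes 4.87%. At 120 h, a near-silent level in 1 treatment beside 5 CPM or more in the other was seen in 1 direction. Genes at 3 counts or fewer in both Chiron libraries and at 5 CPM or more with Activin A numbered 25, and none showed the reverse. Among these 25, Robo3, an axon guidance receptor, and Fam107a were named after their values were seen. Robo3 had 1 count in the Chiron libraries together and stood at 33.2 and 35.5 CPM with Activin A, a ratio of 744 with a 95% counting interval of 133 to 29400. Fam107a had no count with Chiron and was at least 17.5-fold higher with Activin A (5.94 and 4.92 CPM).

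**Figure D1:**
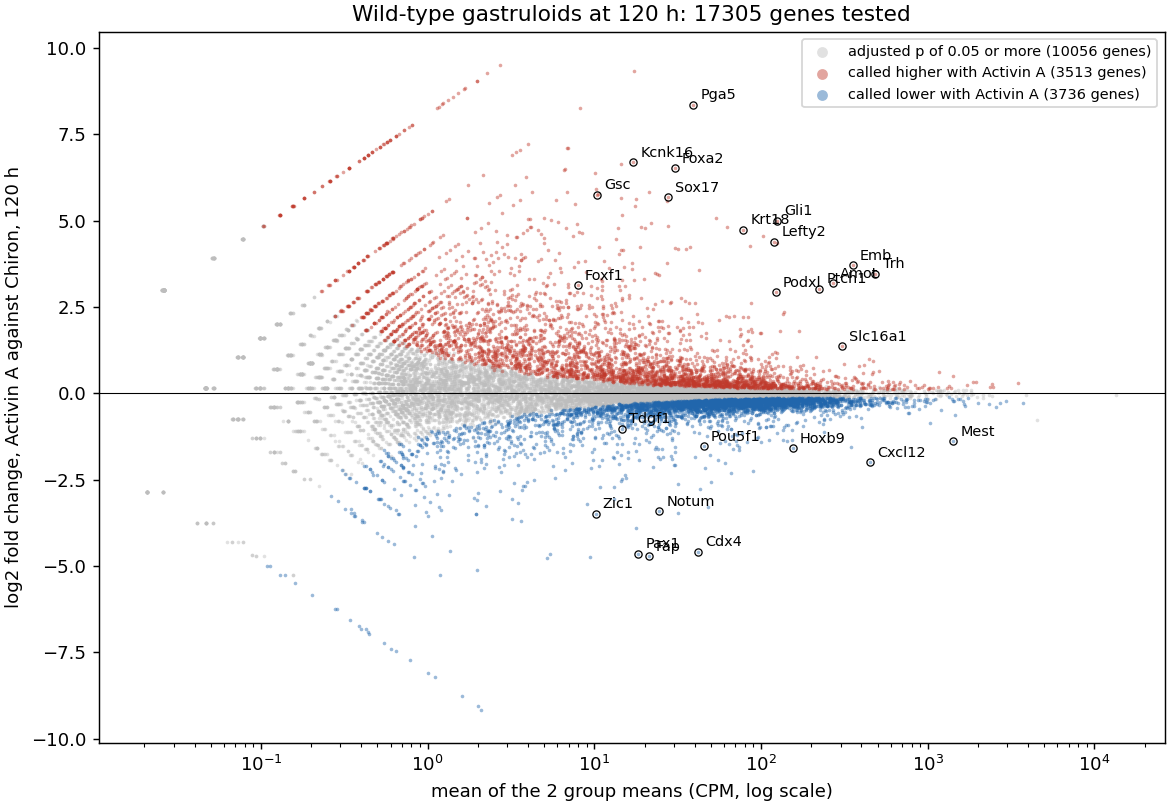
Log2 fold change of Activin A against Chiron at 120 h (y axis) against the mean level of the 2 groups in CPM (x axis, log scale), 1 point per gene. Red points are the 3513 genes that rose and blue points the 3736 that fell; changes above 2-fold are more numerous upward, and the diagonal lines at low levels are genes with few counts in 1 group.

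The genes with the smallest p that rose were a mixed set of surface, epithelial, endodermal and Hedgehog genes. Emb, which encodes the glycoprotein embigin, a partner of monocarboxylate transporters, lay at chr13:117208536-117274415 (mm10, plus strand). It was at 50.2 and 49.9 CPM with Chiron and at 666 and 651 CPM with Activin A. Both Activin A libraries lay far above both Chiron libraries, with a log2 fold change of 3.72 (SE 0.06, edgeR adjusted p 1.055e-22). The transporter Slc16a1, a partner of embigin, rose from 171 and 170 CPM to 437 and 444 CPM. Amot, a scaffold of the Hippo pathway on chromosome X, stood at 55.3 and 51.3 CPM against 485 and 491 CPM (log2 fold change 3.19). Podxl, a sialomucin of apical surfaces, was at 28.9 and 28.1 CPM against 217 and 217 CPM (2.93). The largest rise in CPM among called genes belonged to Trh, the precursor of thyrotropin-releasing hormone, at 81.1 and 80.4 CPM with Chiron and 859 and 921 CPM with Activin A (3.46).

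Among genes with a mean of at least 10 CPM with Activin A and more than 3 counts in some Chiron library, the steepest rises included the potassium channel gene Kcnk16 (log2 fold change 6.69), the kinesin gene Kif12 (6.65), the glucokinase regulator Gckr (5.93), Akr1c19 (5.82) and Samd3 (5.78). Pga5, a pepsinogen gene, had 5 counts in the Chiron libraries and 75.5 and 81.2 CPM with Activin A (8.36). Each of these was near the limit of counting in both Chiron libraries, so the size of the fold rests on few Chiron counts.

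The genes that fell with the smallest p included a chemokine, a caudal homeobox gene and 3 Hox genes. Cxcl12, the chemokine that guides cells through its receptor Cxcr4, went from 748 and 695 CPM to 180 and 181 CPM (log2 fold change -2.0, SE 0.06, edgeR adjusted p 4.1e-18). Cdx4, a caudal homeobox gene at chrX:103321398-103330592 (mm10, plus strand), was at 74.3 and 86.0 CPM with Chiron and at 3.07 and 3.56 CPM with Activin A (-4.59, SE 0.14). Both Chiron libraries were far above both Activin A libraries. The imprinted gene Mest was at 2208 and 1920 CPM against 812 and 759 CPM (-1.39), the largest fall in CPM among called genes. Fxyd6, a modulator of the sodium pump, fell from 554 and 479 CPM to 178 and 176 CPM.

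The steepest falls included genes of the matrix and of the cell surface. Fap, a serine protease of activated fibroblasts, was at 41.1 and 40.6 CPM with Chiron and 1.43 and 1.67 CPM with Activin A (-4.71). Fmod, a matrix proteoglycan of tendon and cartilage, went from 37.4 and 29.1 CPM to 2.36 and 2.09 CPM (-3.91). Ltbp2, a microfibril-associated protein (-4.65), the receptor gene Adra1a (-4.78), Lrrn3 (-4.74), Islr (-2.58), the axon repellent Sema3a (-2.17), Lhpp (-1.38), Pitrm1 (-1.12) and the neural and somitic zinc-finger gene Zic1 (-3.48) also fell.

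**Figure D2:**
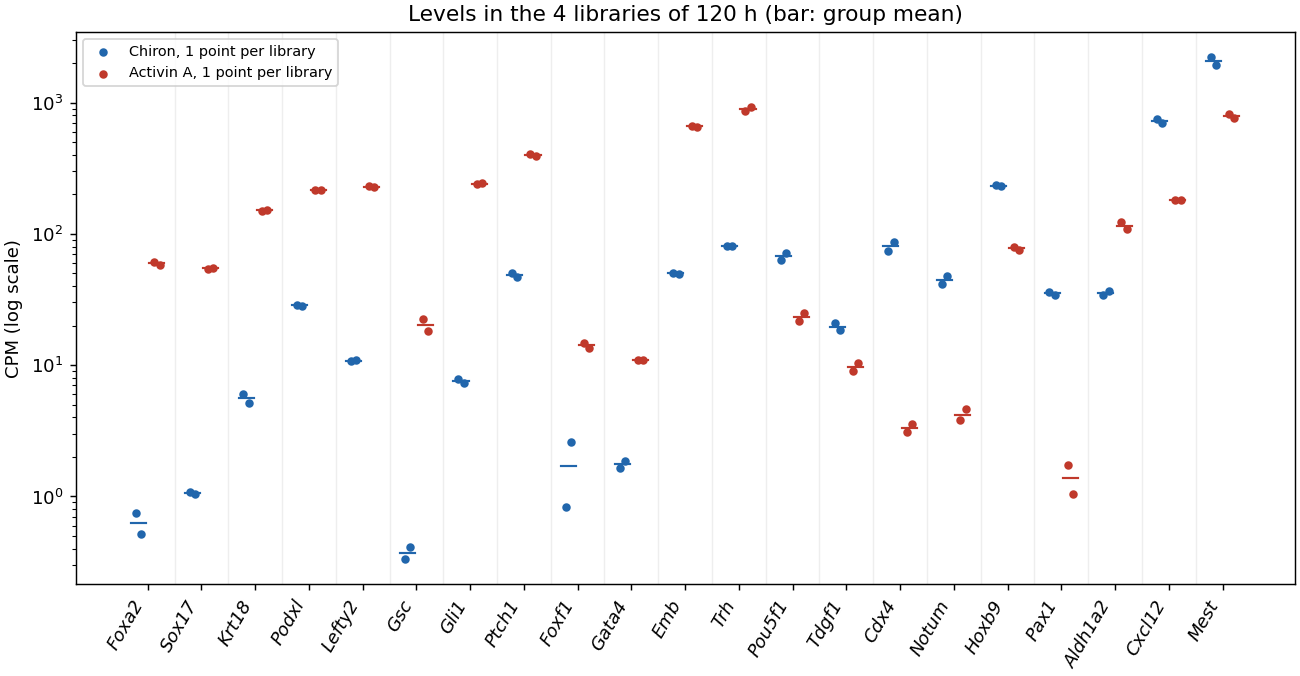
Levels of 21 genes in the 4 libraries of 120 h (y axis, CPM on a log scale), with blue points for Chiron, red points for Activin A and a bar at each group mean. Points of the same treatment lie close together beside the distance between treatments, for example Foxa2 at 0.52 to 0.75 CPM against 58.4 to 61.6 CPM and Cdx4 at 74.3 to 86.0 CPM against 3.07 to 3.56 CPM.

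The Nodal pathway was examined first because Activin A acts through it. Of 9 antagonists and feedback genes tested, 8 rose and none fell, with a median log2 fold change of 2.2. Lefty2, a secreted inhibitor of Nodal, was at 10.8 and 10.9 CPM with Chiron and at 231 and 226 CPM with Activin A (4.40, SE 0.12, edgeR adjusted p 9.1e-19). Lefty1 rose from 12.4 and 10.8 CPM to 235 and 242 CPM (4.35). The same held for Pmepa1, which dampens SMAD2 and SMAD3 (3.11), for Cer1, which binds Nodal outside the cell (2.25), for the Activin-binding follistatin gene Fst (2.2) and for the inhibitory SMAD gene Smad7 (1.03). Fstl3 was near the limit of counting, with 0 and 0.41 CPM against 0.61 and 0.21 CPM.

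Among 4 ligand genes tested, 3 rose and 1 fell (median 1.80, or 1.25 with the member at or under 3 counts set to its bound). Nodal itself was at 5.65 and 7.67 CPM against 39.6 and 39.9 CPM (2.60). Gdf3 fell (-1.57). The receptors and transducers moved little. Of 9 tested, 2 rose and 4 fell, and their median of -0.01 changed sign between settings. Acvr1b, a type I receptor, was at 53.8 and 54.2 CPM against 58.3 and 59.1 CPM, and Smad2 at 91.6 and 95.2 CPM against 91.3 and 93.5 CPM, and neither was called. Smad3 (-0.28), Smad4 (-0.25) and the type II receptor gene Acvr2a (-0.27) fell by small amounts. The exceptions were the SMAD partner Foxh1, which rose from 7.22 and 6.53 CPM to 44.8 and 43.1 CPM (2.67), and the 2 EGF-CFC co-receptors, which moved apart. Cfc1 had 1 count in the Chiron libraries and 15.9 and 16.9 CPM with Activin A (ratio 356, 95% counting interval 63.4 to 14100), while Tdgf1 was at 20.8 and 18.6 CPM against 9.01 and 10.5 CPM (-1.02).

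Definitive endoderm arises from mesendoderm progenitors through the Eomes, Sox17 and Foxa factors. All 16 endoderm transcription factors tested rose, with a median of 4.23 (4.0 with the 1 member at or under 3 counts set to its bound), against -0.01 for all genes. Foxa2, a pioneer factor of endoderm, node and floor plate at chr2:148042877-148046969 (mm10, minus strand), was at 0.747 and 0.518 CPM with Chiron and at 61.6 and 58.4 CPM with Activin A (6.52, SE 0.18, edgeR adjusted p 1.4e-18). Sox17 rose from 1.08 and 1.04 CPM to 54.4 and 54.6 CPM (5.67). The mesendoderm factors Eomes (0.332 and 0.829 CPM against 31.0 and 25.7 CPM) and Gsc (0.332 and 0.415 CPM against 22.5 and 18.1 CPM) rose by 5.66 and 5.76. For these 4 genes both Activin A libraries were far above the higher Chiron library.

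Genes of the anterior endoderm and head organizer rose as well. Otx2 went from 3.32 and 2.80 CPM to 98.6 and 109 CPM (5.06). Hhex, of the foregut and liver bud, went from 2.33 and 1.35 CPM to 36.9 and 34.7 CPM (4.24). Lhx1 was at 3.40 and 4.25 CPM against 69.8 and 72.1 CPM (4.23). Gata6 (4.24), Foxa1 (3.78), Hnf4a (3.18), Prdm1 (2.86), Gata4 (2.63) and Mixl1 (2.58) rose as well.

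Promoter sequences were read for these factors to show where a Foxa-type motif lies in genes that rose together. The string TGTTTAC, on either strand, was found between 250 bases before and 50 bases after the start in 2 of the 11 endoderm factors with a RefSeq promoter (18.2%), against 3.05% of 11741 tested genes. It was found in 2 of 10 secreted endoderm genes, Apoe and Rbp4, and in 0 of 13 epithelial genes. The HNF1-type string GTTAATNAT was found in 0 of 11, 1 of 10 (Afp) and 0 of 13 genes of these lists, against 0.511%. None of the strings searched contains another. The matches in Foxa1 (141 bases before the start) and Prdm1 (231 bases before) are shown in capitals with up to 40 bases on each side, from RefSeq on GRCm38.p6, at chr12:57546206-57546292 and chr10:44458933-44458998, both minus strand. A match describes the letters only.
Foxa1: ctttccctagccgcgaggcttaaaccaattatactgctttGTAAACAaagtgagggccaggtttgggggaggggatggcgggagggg
Prdm1: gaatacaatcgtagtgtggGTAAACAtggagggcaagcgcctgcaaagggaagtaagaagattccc

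Epithelial genes rose almost as a block. Of 21 tested, 20 rose and 1 fell (median 2.62). Krt18 and Krt8, the keratin pair of simple epithelia, were at 5.98 and 5.18 CPM and at 7.06 and 10.1 CPM with Chiron. With Activin A they reached 148 and 153 CPM and 194 and 200 CPM (4.74 and 4.55). The tight junction gene Cldn6 rose from 7.47 and 9.54 CPM to 164 and 163 CPM (4.28, SE 0.10). Cdh1, the epithelial cadherin, was at 25.2 and 23.5 CPM against 147 and 154 CPM (2.62), and Epcam, an adhesion molecule of endoderm and other epithelia, at 11.1 and 11.5 CPM against 68.7 and 68.7 CPM (2.60). The splicing regulator Esrp1 (2.76) and the transcription factors Grhl2 (2.50) and Ovol2 (3.56) rose. Grhl3, a factor of surface ectoderm and closing neural tube, was the member that fell, from 17.9 and 23.3 CPM to 4.71 and 6.38 CPM (-1.88).

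Secreted endoderm proteins stood at unlike levels, and Apoa1, Ttr and Afp, products of visceral endoderm and liver, were low. Of 17 listed genes 13 were tested, and 8 rose and 1 fell (median 1.32). Besides Trh, the pancreatic trypsin inhibitor Spink1 rose from 1.162 and 1.66 CPM to 37.8 and 39.6 CPM (4.80). Apoa1 reached 6.96 and 4.39 CPM (4.33). The transthyretin gene Ttr was at 3.59 and 3.45 CPM with Activin A (2.15), and Afp at 0.819 and 0.837 CPM against 3 counts with Chiron (ratio 5.99, 95% counting interval 1.71 to 32.1). Cubn, the cubilin receptor of absorptive endoderm, fell from 4.82 and 8.09 CPM to 1.02 and 0.941 CPM (-2.68).

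Regional gut factors were divided. Of 12 tested, 6 rose and 5 fell, and the median of 0.12 changed sign when genes needed 10 counts in every library (-0.53) or with GC and length offsets (-0.02), and 3 fell without Activin A replicate 2. Isl1, of foregut and pharynx, went from 0.830 and 0.726 CPM to 30.2 and 26.5 CPM (5.16), and Tbx1 from 0.498 and 0.415 CPM to 5.84 and 5.86 CPM (3.64). The posterior gut gene Cdx2 fell from 214 and 227 CPM to 84.2 and 86.9 CPM (-1.36), and Sox2 from 57.1 and 59.3 CPM to 40.8 and 41.2 CPM (-0.50). Nkx2-1 and Pdx1, which mark lung and thyroid and the pancreas, had too few counts to be tested.

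The node and notochord are the axial midline tissues that secrete Shh and BMP antagonists. Of 13 genes tested, 12 rose and none fell (median 2.76). Noto, a notochord homeobox gene, had 2 counts in the Chiron libraries and stood at 14.7 and 12.9 CPM with Activin A (ratio 149, 95% counting interval 40.9 to 1240). The BMP antagonist Chrd rose from 8.64 and 8.40 CPM to 58.6 and 56.9 CPM (2.76), and Nog from 1.66 and 1.56 CPM to 7.99 and 7.53 CPM (2.26). T, the brachyury gene shared by notochord and caudal progenitors, was at 130 and 149 CPM against 281 and 298 CPM (1.06). The cilium genes Pkd1l1 (4.20) and Foxj1 (1.99) rose, and Dand5, which restrains Nodal at the node, was at 3.07 and 3.11 CPM against 2.77 and 2.51 CPM and was not called.

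Hedgehog ligands bind Ptch1 and release Smo, and Gli1, Ptch1 and Hhip are direct read-outs of the pathway. All 3 rose. Gli1 (chr10:127329882-127341974, mm10, minus strand) was at 7.80 and 7.26 CPM with Chiron and at 240 and 242 CPM with Activin A (log2 fold change 5.00, SE 0.09, edgeR adjusted p 1.64e-22). Ptch1 rose from 50.3 and 47.1 CPM to 403.9 and 391.5 CPM (3.03, SE 0.06) and Hhip from 0.498 and 0.311 CPM to 10.5 and 8.79 CPM (4.51). The libraries of the 2 treatments were far apart for each of them.

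Of the ligands, Shh had 3 counts with Chiron and reached 13.7 and 12.8 CPM with Activin A (ratio 95.8, 95% counting interval 32.4 to 467), and Ihh rose from 0.830 and 0.726 CPM to 4.10 and 3.45 CPM (2.26). The transducers did not follow. Gli2 (-0.58), Gli3 (-0.54), Smo (-0.14) and the co-receptors Boc (-0.86), Gas1 (-0.51) and Cdon (-0.22) all fell. Over the ligand and receptor list 5 of 10 rose and 4 fell (median 1.12, and -0.11 where genes needed 10 counts in every library, which left 7), and 2 fell without Chiron replicate 1 or either Activin A replicate. Over transducers and targets 7 of 12 rose and 5 fell (median 0.85), and only 4 rose without Activin A replicate 2.

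The targets did not move together. Foxf1, of splanchnic mesoderm, was at 0.830 and 2.59 CPM against 14.9 and 13.6 CPM (3.13), and Foxf2 at 0.913 and 0.207 CPM against 9.63 and 8.47 CPM (3.90). Pax1, of the sclerotome, went the other way, from 36.3 and 34.1 CPM to 1.74 and 1.05 CPM (-4.65), and its partner Nkx3-2 from 2.41 and 1.97 CPM to 0.205 and 0.209 CPM (-3.37). The Gli-type string GACCACCCA was found in the promoters of 0 of 9 and 0 of 7 members of the 2 lists that had one, against 0.256% of all, and Gli1, Shh and Foxf1 were not among them.

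**Figure D3:**
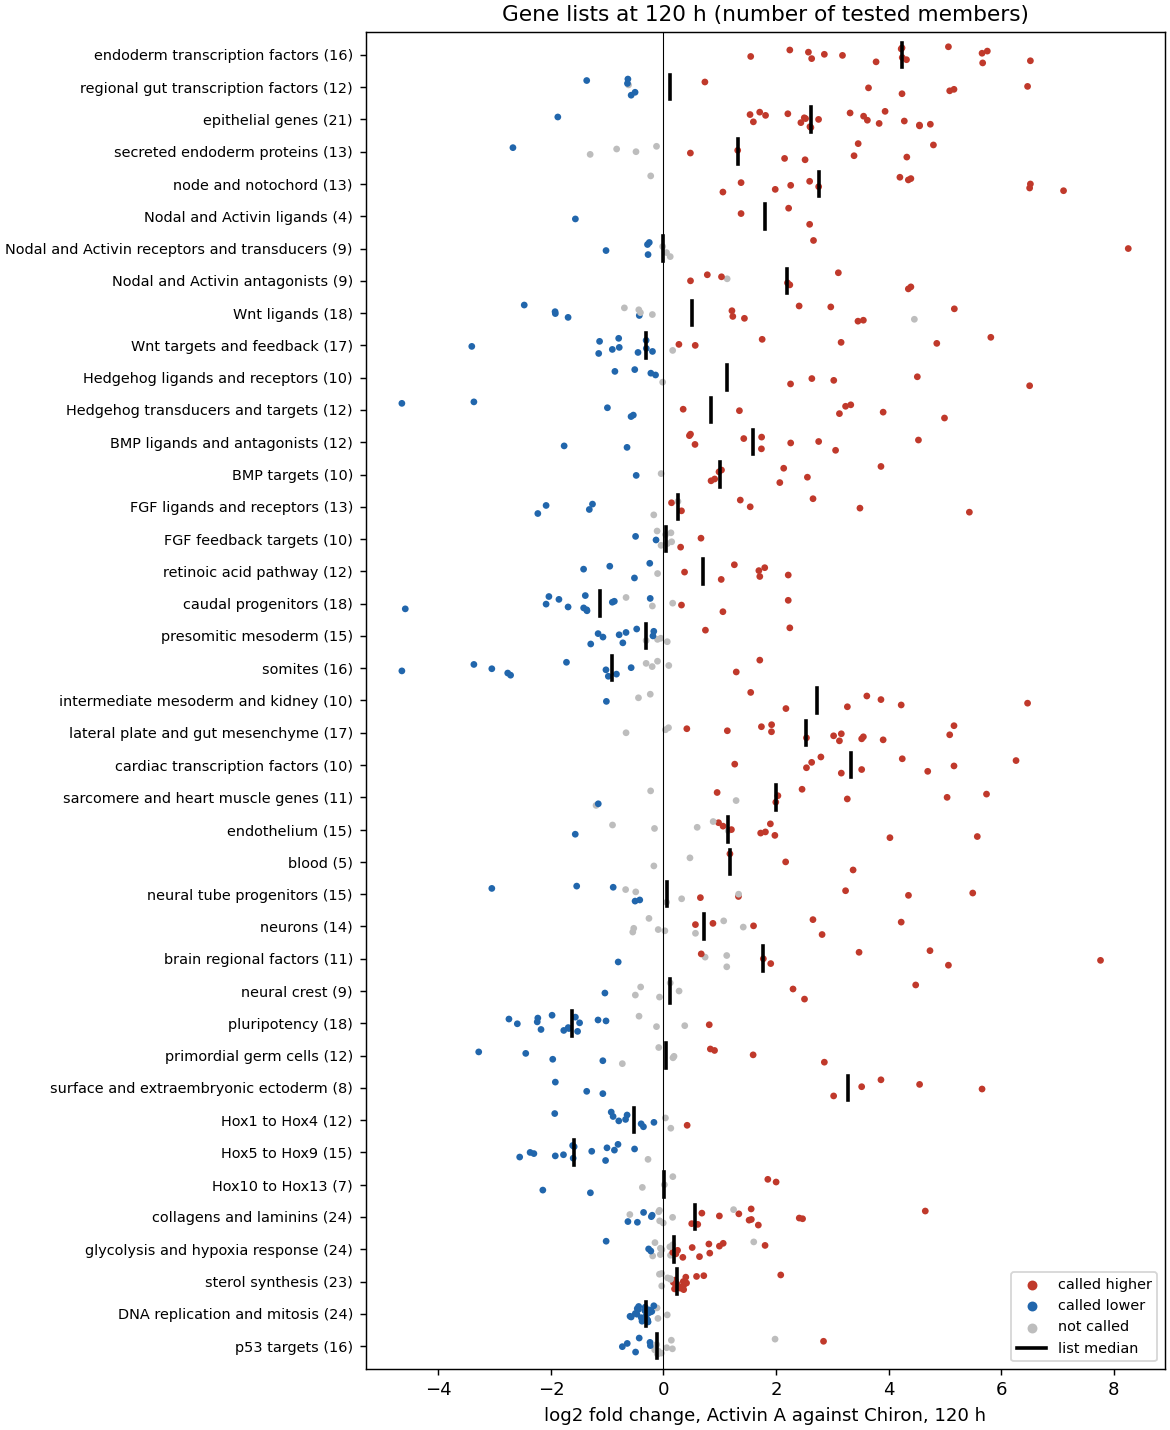
Log2 fold change at 120 h (x axis) of each tested member of 41 gene lists (rows, with the number tested), red where called higher, blue where called lower and grey where not called, with a black bar at the list median. Endoderm, epithelial, notochord, cardiac and lateral plate lists lie to the right, and the lists of Hox groups 1 to 4 and 5 to 9, somites, caudal progenitors and pluripotency to the left, while Hox groups 10 to 13 are centred near 0.

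Lateral plate and gut mesenchyme genes mark the mesoderm that surrounds the gut and forms the heart field. Of 17 tested, 14 rose and none fell, with a median of 2.54 (1.92 with the 5 members at or under 3 counts set to their bound). Prrx2 rose from 50.4 and 51.5 CPM to 114 and 109 CPM (1.14) and Prrx1 from 3.40 and 3.21 CPM to 12.6 and 12.6 CPM (1.92). The mesenchymal factors Twist1 (23.3 and 24.2 CPM against 24.8 and 23.7 CPM) and Snai2 were not called.

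The cardiac transcription factors tested all rose, 10 of 10, with a median of 3.34 (2.79 with the 4 members at or under 3 counts set to their bound). Their levels were low. Together they summed to 5.23 and 6.22 CPM with Chiron and to 82.3 and 80.4 CPM with Activin A, of which Isl1, Gata6 and Gata4, also expressed in endoderm, made up most. Tbx20 rose from 0.166 and 0.207 CPM to 4.81 and 5.13 CPM (4.70), and Nkx2-5 from 0.166 and 0.311 CPM to 1.84 and 2.41 CPM (3.16). Gata5 had 2 counts with Chiron and 6.86 and 8.47 CPM with Activin A (ratio 83.1, 95% counting interval 22.6 to 692). Tbx5, of the first heart field, had too few counts to be tested.

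Contractile genes were mixed and low. Of 11 tested, 7 rose and 1 fell (median 2.00). Myl3 rose from 0.415 and 0 CPM to 8.19 and 7.43 CPM (5.04), and Myh7 stood at 5.94 and 4.71 CPM against 2 counts with Chiron (ratio 57.8, 95% counting interval 15.6 to 484). The troponin genes differed, since Tnnc1 rose (2.00), Tnni1 fell from 6.06 and 6.22 CPM to 2.66 and 2.82 CPM (-1.16) and Tnnt2 was at 1.33 and 1.04 CPM against 0.512 and 0.523 CPM without being called. Nppa, Nppb, Ttn and Pln were not tested.

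In the endothelial list 9 of 15 rose and 1 fell (median 1.15), and 5 rose without Activin A replicate 2. The VEGF receptors led. Flt1 went from 1.162 and 1.04 CPM to 53.6 and 52.8 CPM (5.58) and Kdr from 1.83 and 1.35 CPM to 22.8 and 29.9 CPM (4.03). Cdh5, the endothelial cadherin, was at 1.02 and 1.15 CPM with Activin A (1.73), Pecam1 fell from 2.82 and 3.73 CPM to 1.13 and 1.05 CPM (-1.57), and Sox7 was not called. Of 16 blood genes 5 were tested. Runx1 rose from 2.41 and 1.97 CPM to 10.7 and 9.31 CPM (2.17) and Tal1 from 0.415 and 0.311 CPM to 3.59 and 4.18 CPM (3.37), while the erythroid genes Gata1, Klf1 and all listed globins stayed under the filter on low counts.

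Intermediate mesoderm gives rise to kidney and gonads. Of its 10 genes 7 rose and 1 fell (median 2.72, or 2.17 with 2 members set to their bound). Osr1 had 3 counts with Chiron and 12.8 and 13.1 CPM with Activin A (ratio 93.5, 95% counting interval 31.6 to 457). Ret, the GDNF receptor, rose from 2.99 and 1.97 CPM to 31.5 and 30.7 CPM (3.61), Gata3 from 0.664 and 0.829 CPM to 12.3 and 9.41 CPM (3.87) and Pax2 from 1.08 and 0.829 CPM to 4.20 and 4.60 CPM (2.18). Wt1 fell from 12 and 12 CPM to 5.53 and 6.38 CPM (-1.01). Lhx1 is also an endoderm gene of the list described before.

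Caudal progenitors of the tail bud are sustained by Wnt, FGF and Cdx factors. Of 18 genes tested, 12 fell and 3 rose (median -1.13). After Cdx4 the steepest falls were Fgf17, from 47.6 and 49.2 CPM to 12.2 and 10.6 CPM (-2.09), Epha5 (-2.04), Hes3 (-1.86) and Wnt3a, from 24.3 and 24.7 CPM to 7.07 and 8.05 CPM (-1.70). Nkx1-2, a marker of neuromesodermal progenitors, fell from 141 and 151 CPM to 59.1 and 50 CPM (-1.42), Gdf11 from 101 and 103 CPM to 41.4 and 36.5 CPM (-1.39) and Cdx1 from 27.6 and 31.7 CPM to 12.7 and 10.3 CPM (-1.36). The 3 that rose were T, Fgf8, from 47.9 and 45.6 CPM to 59.7 and 57.2 CPM (0.32), and Cyp26a1, which degrades retinoic acid, from 27.0 and 28.1 CPM to 129 and 127 CPM (2.22).

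For promoters of the caudal list, the TCF/LEF-type string CTTTGATC was found in 3 of 14 (21.4%; Greb1, Sp5 and Wnt5b), against 0.826% of all, and in 1 of 11 Wnt targets. Of these, Greb1 fell (-0.24) and Sp5 and Wnt5b were not called. The CDX-type string TTTATGG was found in 2 of 14 (T and Wnt5b) and in 0 of 7 genes of Hox groups 5 to 9, against 1.99%.

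In the presomitic mesoderm the Notch-driven segmentation clock sets the pace of somite formation. Of 15 genes 9 fell and 2 rose (median -0.31), and 5 fell without Activin A replicate 2. Clock and Notch genes fell together. Dll1, the Notch ligand, went from 206 and 208 CPM to 96.3 and 100 CPM (-1.08), and Hes7, the clock repressor, from 55.4 and 62.0 CPM to 25.3 and 27.0 CPM (-1.16). Lfng (-0.79) and Nrarp (-0.67) fell as well. Tbx6, which specifies paraxial mesoderm, was at 37.8 and 45.7 CPM against 17.5 and 16.3 CPM (-1.29). At the boundary of forming somites, Mesp2 (9.30 and 11.4 CPM against 7.78 and 8.79 CPM), Ripply1 and Ripply2 were not called. Cer1 and Pcdh8 (0.75) rose.

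The promoters of Hes7, Lfng and Msgn1 are shown because these genes fell and each holds the RBPJ-type string GTGGGAA, on either strand, through which Notch acts. The call of Msgn1 ended under at least 1 alternative. A match describes the letters only, and Notch activity was not tested. The RBPJ-type string was found in 3 of 14 presomitic genes with a promoter (21.4%), against 7.27% of all tested genes. The T-box string TCACACCT was found in 1 of 14 (Mesp1) and in 0 of 14 caudal genes, against 1.05%. The matches lie 180, 109 and 114 bases before the start, in capitals, at chr11:69120233-69120319 (plus strand), chr5:140607192-140607278 (plus strand) and chr12:11209016-11209102 (minus strand), from RefSeq on GRCm38.p6.
Hes7: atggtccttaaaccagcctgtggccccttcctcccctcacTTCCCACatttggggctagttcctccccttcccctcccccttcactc
Lfng: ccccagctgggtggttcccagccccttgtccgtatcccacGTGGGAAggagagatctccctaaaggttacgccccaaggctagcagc
Msgn1: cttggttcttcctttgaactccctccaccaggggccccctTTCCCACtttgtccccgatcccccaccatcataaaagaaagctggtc

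Somites give rise to vertebrae, muscle and dermis. Of 16 genes tested, 10 fell and 2 rose (median -0.91). Besides Pax1 and Nkx3-2, the dermomyotome gene Pax7 fell from 25.5 and 21.6 CPM to 3.38 and 2.30 CPM (-3.05), and Uncx, of the posterior part of each somite, from 73.5 and 76.2 CPM to 11.3 and 10.7 CPM (-2.77). Meox2 (-2.72) and the tendon factor Scx (-1.72) fell. The general somite genes Meox1 (562 and 503 CPM against 264 and 277 CPM, -0.98), Pax3 (-1.02) and Tcf15 (-0.84) fell by about 2-fold. Foxc1 and Foxc2 were not called, at 97.7 and 93.7 CPM against 85.7 and 81.0 CPM for Foxc1. The 2 that rose were Aldh1a2 and Tbx18, which went from 7.31 and 7.57 CPM to 18.0 and 18.4 CPM (1.29).

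Hox genes are laid out in 4 clusters whose paralog groups follow the head-to-tail axis. Of 34 tested, 25 fell and 3 rose (median -0.84). Their summed level was 2010 and 2140 CPM with Chiron and 1130 and 1110 CPM with Activin A. The size of the fall changed along the clusters. Paralog groups 1 and 2 had medians of 0.13 and -0.28, groups 3, 4 and 5 of -0.67, -0.91 and -1.03, and groups 6 and 7 of -1.92 and -2.34. In groups 8, 9 and 10 the medians were -0.87, -1.30 and -1.30. Each of these medians rests on 2 to 4 genes. Group 11 had a median of 1.86 over 3 genes, of which 2 rose, both at low levels, and the lowest was at 0.02.

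Hoxb9 was at 235 and 230 CPM with Chiron and 79.8 and 75.0 CPM with Activin A (-1.59, SE 0.06), and Hoxa7 at 108 and 113 CPM against 23.6 and 21.0 CPM (-2.30). Hoxc4 fell from 87.8 and 87.2 CPM to 23.9 and 22 CPM (-1.93). Hoxd3 (124 and 140 CPM against 137 and 133 CPM) was not called, and its treatments overlapped. The 3 that rose were Hoxd1 (10.8 and 10.3 CPM against 14.1 and 14.1 CPM), Hoxc11 (0.332 and 0.415 CPM against 1.64 and 1.36 CPM) and Hoxd11 (0.747 and 1.14 CPM against 4.30 and 2.41 CPM). Over groups 10 to 13, 2 of 7 rose and 2 fell, and their median of 0.02 changed sign between settings. In the Hoxc cluster 6 of 7 fell, in Hoxb 8 of 9, in Hoxa 8 of 10 and in Hoxd 3 of 8. Members of a cluster overlap and share transcripts in the annotation, so single Hox counts are uncertain.

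**Figure D4:**
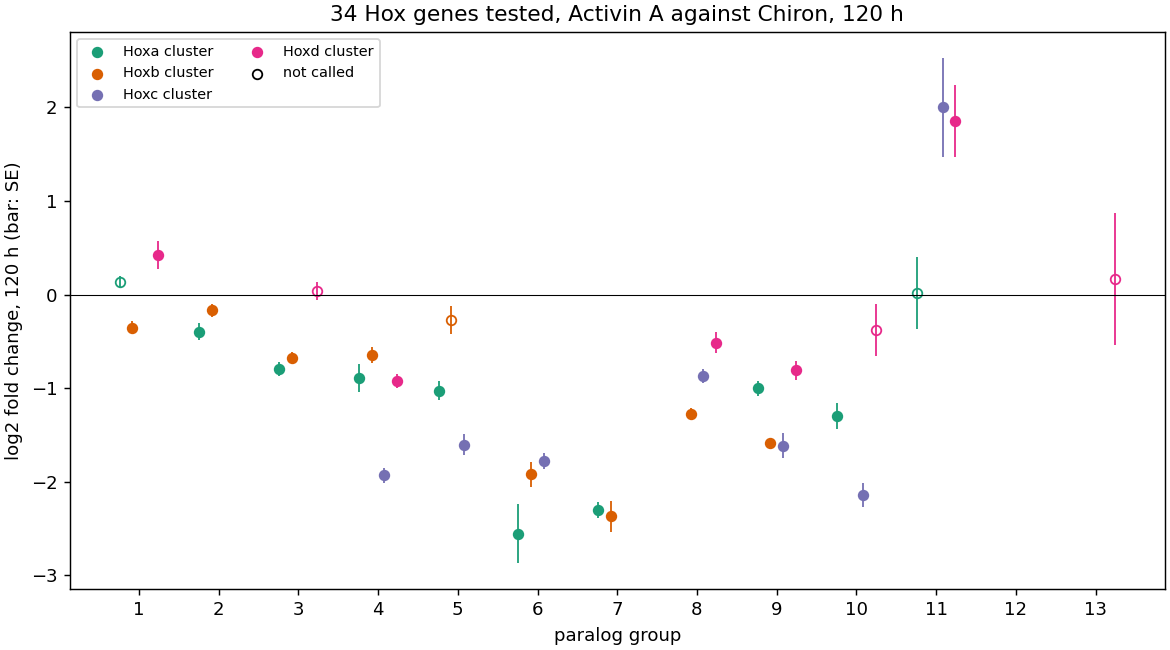
Log2 fold change at 120 h with its SE (y axis) of 34 Hox genes by paralog group (x axis) and cluster (colour), filled where called and open where not called. The medians of the groups go down from 0.13 in group 1 to -2.34 in group 7 and lie between -0.87 and -1.30 in groups 8 to 10. In group 11, with 3 genes tested and 2 called, the median is 1.86.

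Retinoic acid, made by Aldh1a2 and removed by Cyp26 enzymes, patterns the trunk. Of 12 genes 7 rose and 4 fell (median 0.70). Aldh1a2 went from 34.1 and 36.7 CPM to 122 and 109 CPM (1.71), the binding protein gene Crabp1 from 56.7 and 59.6 CPM to 199 and 205 CPM (1.80) and Rarb, a receptor and direct target, from 8.55 and 8.91 CPM to 28.1 and 28.5 CPM (1.70). The receptor gene Rarg fell from 117 and 123 CPM to 44.8 and 45 CPM (-1.42), and Crabp2 from 155 and 147 CPM to 74.7 and 81.3 CPM (-0.95).

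Wnt genes were compared because Chiron acts on this pathway. Among 17 targets and feedback genes, 10 fell and 6 rose (median -0.30). Axin2, a general target, fell from 104 and 109 CPM to 47.4 and 48.2 CPM (-1.15), and Notum, which inactivates Wnt ligands, from 41.8 and 47.7 CPM to 3.79 and 4.60 CPM (-3.41, SE 0.14). Lef1 (-0.45), Sp8 (-0.91), Nkd2 (-0.79) and Apcdd1 (-1.14) fell, whereas Sp5 was at 14 and 16.8 CPM against 18.4 and 15.8 CPM.

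Secreted inhibitors were divided, and some of them, Notum included, fell. Others and Lgr5 were among the members that rose, of which there were 4 with DESeq2, with the fits on FPKM or with GC and length offsets. Dkk1 went from 1.58 and 2.18 CPM to 53.2 and 54.3 CPM (4.86), Sfrp5, of the ventral foregut, from 1.08 and 0.311 CPM to 40.8 and 43.2 CPM (5.82) and Sfrp1 from 46.7 and 43.6 CPM to 151 and 154 CPM (1.75). Lgr5, an R-spondin receptor, rose from 1.08 and 1.24 CPM to 11.5 and 9.20 CPM (3.16). The frizzled receptor Fzd5 rose from 4.98 and 3.52 CPM to 125 and 118 CPM (4.81). Of 18 Wnt ligands 8 rose and 5 fell, with 5 rises without Chiron replicate 1 and 3 falls without Activin A replicate 1, where the median was 0.09. Their median of 0.51 was -0.10 with the 6 members at or under 3 counts set to their bound, and it was negative in 4 other settings. Wnt16 (-2.47) and Wnt3a fell most, and Wnt8a rose from 6.39 and 8.60 CPM to 16.1 and 18.3 CPM (1.22).

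BMP genes rose more often than they fell. Of 12 ligands and antagonists 10 rose and 2 fell (median 1.58). Bmp2 went from 1.91 and 2.59 CPM to 18.6 and 18.4 CPM (3.06), Bmp4 from 2.91 and 3.42 CPM to 10.7 and 10.4 CPM (1.74) and the antagonist Grem1 from 0.166 and 0.415 CPM to 6.96 and 6.17 CPM (4.53). Bmp5 (-0.65) and Bmp6 (-1.77) fell. Of 10 targets 8 rose and 1 fell (median 1.01). Id1, a sensitive read-out of BMP signalling, rose from 15.9 and 16.4 CPM to 65.7 and 69.8 CPM (2.07), and Id2 and Id3 by 0.85 and 0.91.

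FGF ligands changed one by one. Of 13 ligands and receptors 7 rose and 4 fell (median 0.26). Fgf5, of the epiblast, rose from 0.996 and 0.518 CPM to 34.6 and 33.9 CPM (5.44), Fgf10 from 0.830 and 0.933 CPM to 10.3 and 9.52 CPM (3.49) and Fgf15 from 8.80 and 6.74 CPM to 22.8 and 23.0 CPM (1.54). Besides Fgf17, Fgf4 (-2.23), Fgf9 (-1.32) and Fgf18 (-1.26) fell. Of 10 feedback targets of FGF signalling 2 rose and 2 fell, near the shares of all genes (20.3% and 21.6%). Their median was 0.05, and -0.14 with GC and length offsets. With total counts alone, with 10 counts needed in every library or on the 4 libraries of 120 h alone, 4 rose and 1 fell. Spry4 was at 15.9 and 19.8 CPM against 19.6 and 17.5 CPM, Dusp6 at 186 and 183 CPM against 168 and 169 CPM (-0.13).

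In the neural tube list 5 of 15 rose and 5 fell, and its median of 0.06 was of either sign between settings. Nkx6-1, a ventral factor, went from 0.249 and 0.415 CPM to 13.7 and 16.1 CPM (5.50), Olig2, of motor neuron progenitors, from 0.498 and 0.415 CPM to 9.83 and 9.31 CPM (4.35), and Nkx2-2, next to the floor plate, from 2 counts to 0.717 and 1.15 CPM (ratio 10.1, 95% counting interval 2.42 to 89.8). Nkx6-1 and Nkx2-2 are also expressed in pancreatic endoderm. Pax7, a dorsal factor shared with the dermomyotome, fell, as did Hes5 (-0.89), Fabp7 (-1.54) and Sox3 (-0.42). Sox1 (11.5 and 12.4 CPM against 11.2 and 13.7 CPM) and Pax6 were not called.

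Regional brain factors were low apart from Otx2. Of 11 tested 7 rose and 1 fell (median 1.77, and 1.08 without Chiron replicate 1). Dmbx1, of the midbrain, rose from 0.249 and 0.415 CPM to 7.48 and 10.2 CPM (4.74), and Six3, of the forebrain, had no count with Chiron and was at least 5.16-fold higher with Activin A (1.54 and 1.67 CPM). Gbx2, which opposes Otx2 at the midbrain-hindbrain boundary, fell from 31.5 and 35.8 CPM to 18.0 and 20.3 CPM (-0.80). Among 14 neuronal genes 6 rose and none fell (median 0.72, or 0.49 with 5 members set to their bound), 1 of them Lhx1. The pan-neuronal gene Tubb3 was at 7.31 and 6.12 CPM against 6.86 and 6.90 CPM and was not called. In neural crest 3 of 9 rose and 1 fell, with Erbb3 at 3.82 and 2.80 CPM against 17.4 and 15.8 CPM (2.30) and Ets1, also endothelial, at 90.3 and 86.4 CPM against 44.0 and 41.9 CPM (-1.04).

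Pluripotency genes were lower with Activin A. Of 18 tested 14 fell and 1 rose, with a median of -1.62 (-1.55 with 1 member set to its bound). Dppa5a fell from 148 and 147 CPM to 30.1 and 32.2 CPM (-2.24), Pou5f1, which encodes Oct4, from 63.3 and 71.7 CPM to 21.8 and 24.9 CPM (-1.53) and Nanog from 22.3 and 22.7 CPM to 7.78 and 5.33 CPM (-1.77). Zfp42 (-2.18), Esrrb (-1.68) and Dppa2 (-2.60) fell. Klf4 and Klf5 were not called, and Tbx3, which also marks endoderm and mesoderm derivatives, rose (0.81). Germ cell genes showed no shared direction, with 4 of 12 up and 4 down and a median of 0.04 that changed sign in several settings, and 2 fell without Chiron replicate 1 or either Activin A replicate. Prdm1, Kit (1.59), Sall4 (0.83) and Ifitm3 (0.91) rose and Tfap2c (-1.08), Ddx4 (-3.28), Dppa3 (-1.97) and Dazl fell. Ddx4, a germ cell helicase, was at 1.66 and 2.59 CPM against 0.205 and 0.209 CPM, and Dazl had 2 counts with Activin A (5.79 times lower, 95% counting interval 1.31 to 52.9). In the list of surface and extraembryonic ectoderm 5 of 8 rose and 3 fell (median 3.27, or 2.10 with 2 members set to their bound, and -1.19 where genes needed 10 counts in every library). The members that rose are shared with endoderm and mesoderm (Eomes, Krt7, Gata3, Hand1) apart from Krt15, and Trp63, Krt5, Krt14 and Elf5 were not tested.

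Matrix genes rose in 12 of 24 cases and fell in 5 (median 0.56, or 0.19 with GC and length offsets, where 8 fell), and 3 fell without Activin A replicate 1. Fibronectin, Fn1, went from 315 and 278 CPM to 596 and 586 CPM (0.99), Col5a1 from 43.1 and 41.5 CPM to 123 and 120 CPM (1.52) and Sparc from 44.0 and 40.9 CPM to 123 and 128 CPM (1.56). Lamb3, an epithelial laminin chain, rose from 0.249 and 0.311 CPM to 6.66 and 7.64 CPM (4.65). The basement membrane collagens Col4a1 (-0.46) and Col4a2 (-0.63) fell. Housekeeping programmes changed by small amounts. DNA replication and mitosis genes fell in 21 of 24 cases and rose in none (median -0.32, with -0.27 to -0.46 over the other settings), for example Rrm2, from 369 and 382 CPM to 243 and 254 CPM (-0.59), and Top2a, from 499 and 516 CPM to 368 and 366 CPM (-0.47).

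Of 24 glycolysis and hypoxia genes 12 rose and 3 fell (median 0.18, and -0.01 with GC and length offsets, where 9 fell). Vegfa, the ligand of Flt1 and Kdr, rose from 71.2 and 79.8 CPM to 259 and 267 CPM (1.81), Slc16a3 by 0.99 and Ldha by 0.51, while Gapdh (-0.22) and Eno1 (-0.26) fell. Sterol synthesis genes rose in 17 of 23 cases and fell in none (median 0.24). With GC and length offsets 7 rose and 2 fell (median 0.08). Insig1, a regulator of the pathway, rose by 0.72. Of 16 p53 targets 1 rose, Perp, which also encodes a protein of epithelial junctions (2.85), and 6 fell, with Cdkn1a at 88.8 and 96 CPM against 84.3 and 87.1 CPM.

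A day earlier, at 96 h, the treatments differed for 10655 genes (61.6%), in the deeper libraries. At both times 4991 genes were called, 3823 of them with the same sign and 1168 with opposite signs. Called at 120 h but not at 96 h were 2258 genes, and at 96 h but not at 120 h 5664. The difference between the 2 effects was itself tested as a treatment-by-time term, and 6861 genes (39.6%) passed. With all libraries thinned to the size of the smallest, 8365 genes were called at 96 h and 5830 for the treatment-by-time term.

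Endoderm and notochord genes were already higher at 96 h. The medians of these lists were 3.18 and 3.23, and Foxa2 differed by a log2 of 5.59, for which no difference from 120 h was called (edgeR adjusted p 0.057). None was called for Gsc either (5.48, edgeR adjusted p 0.71) or Podxl (2.92, adjusted p 0.96), which is in neither list. The share of endoderm genes that passed the treatment-by-time test, 6 of 16, was near the 39.6% of all genes and does not set this list apart. Of 13 node and notochord genes 7 passed. T passed as well, with 1.64 at 96 h and 1.06 at 120 h (edgeR adjusted p 6.26e-06). The effects on the Hedgehog read-outs Ptch1 and Gli1 were larger at 120 h. Ptch1 differed by 0.36 at 96 h and 3.03 at 120 h (treatment-by-time log2 2.66, edgeR adjusted p 4.62e-17), and Gli1 by 1.98 and 5.00 (3.02, adjusted p 2.05e-14).

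Lateral plate and gut mesenchyme genes moved from a median of -1.07 to one of 2.54, and 14 of 17 passed the treatment-by-time test. Foxf1 was lower with Activin A at 96 h (-2.63) and higher at 120 h (3.13), and so was Osr1 (-3.04 at 96 h). The medians of presomitic genes went from -2.45 to -0.31, those of somite genes from -1.70 to -0.91 and those of Hox genes from -3.34 to -0.84. Foxc2 differed by -7.48 at 96 h and by 0.09 at 120 h, and Hoxb9 by -6.14 and -1.59. The retinoic acid list had medians of -1.43 and 0.70. Pluripotency genes differed by a median of -0.69 at 96 h, with 5 of 18 higher and 10 lower, while caudal genes were at -0.56.

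**Figure D5:**
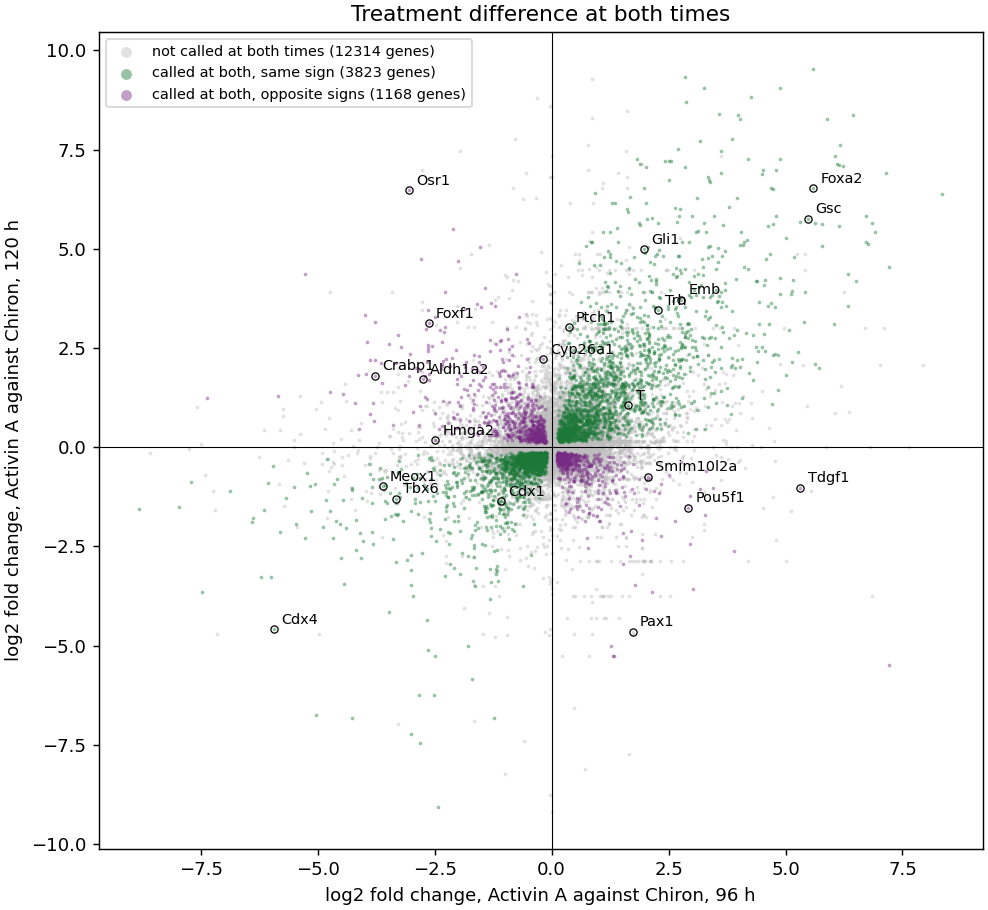
Log2 fold change of Activin A against Chiron at 96 h (x axis) and at 120 h (y axis), 1 point per gene, green for 3823 genes called at both times with the same sign, purple for 1168 called with opposite signs and grey for the rest. Foxa2 and Gsc lie near the diagonal, Gli1 and Ptch1 above it, and Crabp1, Aldh1a2, Tdgf1 and Pou5f1 in the quadrants of opposite sign.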

How the data were processed

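Poly(A) RNA was sequenced with the TruSeq Stranded mRNA kit, per the labels' protocols. The submitters' processing notes name cutadapt 1.16, STAR, Cufflinks 2.2.1 and mm10. The deposited table of raw counts per gene was the main input, and the deposited FPKM values of the authors served in 2 alternatives; how strand was used in counting is not given in the sources used here. Genes were filtered with filterByExpr, scaled with TMM and fitted with edgeR 4.0.16 (quasi-likelihood, R 4.3.3) over 8 libraries in 4 groups without covariates, with Benjamini-Hochberg adjustment over 17305 genes. The contrasts were Activin A against Chiron at 120 h, at 96 h and their difference. Alternatives used RLE factors, total counts, other filters, DESeq2 1.42.0, limma 3.58.1 on log2(FPKM + 1) and log2(FPKM + 0.1), a replicate block, the 4 libraries of 120 h alone, thinned counts, GC and length offsets, and each library left out.

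The fit was tested on simulated data for the comparison at 120 h over 16476 genes, with 200 genes changed. There 87% of 2-fold and 97% of 4-fold changes were recovered and 4.17% of calls were false. The simulation used the same spread for all genes and few changes, equal in both directions and none at low levels. The data differ in this, so these rates need not hold for them. Ratios of genes with 1 to 3 counts in a group carry exact 95% intervals, which cover counting error only, as do bounds against 3 counts per library. Gene annotation came from GENCODE vM21 by gene identifier (54887 of 55138 matched), and promoters from RefSeq. The genes named by rule are, in each direction, the 12 with the smallest p, the 8 with the largest fold and the 5 with the largest difference in CPM among non-overlapping genes called with a 2-fold change or more, up to 6 called members per list by p, and 3 genes with opposite signs at the 2 times by p of the treatment-by-time term. Gene models without a given name were skipped. Further list members were added for their role after their values were seen. The comparison and the lists were chosen with earlier results of these data known. Some genes are not reported here.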

Additional observations from a re-analysis of the deposited data

Results flagged for a closer look

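The effect of Activin A against Chiron differed between 120 h and 96 h for 6861 genes, by edgeR's test of the treatment-by-time term. In 6 genes with opposite effects at the 2 times the difference between them was as follows. Crabp1, a retinoic acid binding protein, was lower with Activin A at 96 h (log2 fold change -3.78) and higher at 120 h (1.80), a difference of 5.58. Aldh1a2, which makes retinoic acid, went from -2.75 to 1.71, a difference of 4.46. Hmga2, a chromatin protein of embryonic cells, went from -2.48 to 0.18, a difference of 2.67, and its call at 120 h ended with GC and length offsets (0.10). The opposite order held for Tdgf1, the Nodal co-receptor, which was higher with Activin A at 96 h (5.32) and lower at 120 h (-1.02), a difference of -6.34. Pou5f1 went from 2.93 to -1.53, a difference of -4.45, and Smim10l2a from 2.05 to -0.75, a difference of -2.80.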

How the results depend on the processing

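The deviations of same-numbered libraries correlated at 0.041 at 120 h and 0.042 at 96 h. Such values show no shared deviation, but counting error in each library also lowers them, so pairing was not excluded. With the replicate block, 7256 genes were called at 120 h, 10725 at 96 h and 6937 for the treatment-by-time term. DESeq2 called 5507, 7988 and 5047. With GC and length offsets 6452 genes fell at 120 h. Calls of at least 2-fold numbered 1018 (812 upward, 206 downward) where 10 counts were needed in every library, which tests fewer genes, 804 (618 and 186) with limma on log2(FPKM + 1) and 1514 (1147 upward) on log2(FPKM + 0.1), and these limma fits called 7093 and 6684 genes at 96 h. With 1 library left out, 5433 to 7650 genes were called at 120 h, 8513 to 11062 at 96 h and 5492 to 7170 for the treatment-by-time term, and 1933 to 2314 by at least 2-fold. The lone library of a group is then assumed to vary like the other groups.

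Some list medians changed sign, among them 3.27 for surface and extraembryonic ectoderm and 1.12 for Hedgehog ligands and receptors, and the cause was not tested. Where 10 counts were needed in every library, they were -0.53 for regional gut factors, -0.28 for Wnt ligands, -0.11 for Hedgehog ligands and receptors, -0.39 for neural tube progenitors and -1.19 for surface and extraembryonic ectoderm. GC and length offsets put the median of all genes at -0.17. With them the list medians were -0.02 for regional gut factors, -0.14 for FGF feedback targets and -0.31 for neural tube. They were -0.18 for germ cells, -0.19 for Hox groups 10 to 13 and -0.01 for glycolysis. On log2(FPKM + 1) and log2(FPKM + 0.1) they were -0.25 and -0.43 for Wnt ligands, -0.10 and -0.17 for neural tube, -0.02 and -0.03 for germ cells and -0.30 and -0.46 for Hox groups 10 to 13, which DESeq2 put at -0.01. On the 4 libraries of 120 h alone they were 0.02 for Nodal receptors (0.04 with total counts alone), -0.16 for Wnt ligands, -0.39 for neural tube and -0.14 for Hox groups 10 to 13. With each library left out in turn, the median ranged from -0.04 to 0.01 for Nodal receptors, from -0.08 to 0.11 for FGF feedback targets, from -0.10 to 0.18 for neural tube, from -0.14 to 0.48 for neural crest, from -0.10 to 0.08 for germ cells and from -0.39 to 0.08 for Hox groups 10 to 13.

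Among genes not called, GC and length offsets gave the other sign for Acvr1b (-0.13), Foxc2 (-0.23), Hoxd3 (-0.29), Mesp1 (-0.22) and Sox1 (-0.31). The same held for Sp5 (-0.14), Spry4 (-0.13), Tubb3 (-0.29) and Twist1 (-0.28). The median of all genes was -0.17 in this setting, and a change particular to these genes was not tested. Smad2 was at 0.03 in both limma fits, 0.04 with total counts alone and 0.02 on the libraries of 120 h alone or with 10 counts needed. With each library left out in turn the log2 fold change ranged from -0.06 to 0.12 for Hoxd3, from -0.31 to 0.04 for Klf4, from -0.37 to 0.56 for Mesp1, from -0.23 to 0.04 for Ripply1, from -0.04 to 0.01 for Smad2, from -0.24 to 0.36 for Snai2, from -0.10 to 0.20 for Sox1, from -0.10 to 0.22 for Spry4 and from -0.09 to 0.17 for Tubb3. At 9108085 to 11930416 counts per library of 120 h, genes at or under 3 counts in a group give a bound or a wide interval and no precise fold.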
